A study of Mus musculus with 6 samples.

Results

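The hypoxia response and glycolysis genes examined here are 42 protein-coding genes, taken from a list written by name and not from measured values, among 21631 protein-coding genes on chromosomes 1 to 19 and X. They comprise 3 subunits of the hypoxia-inducible factors, 5 genes of oxygen sensing and factor turnover, 3 transporters of glucose and lactate, 15 glycolytic enzymes and their regulators, 3 pyruvate dehydrogenase kinases and 13 other hypoxia targets. All 42 were found in the RefSeq gene table, 41 by symbol and Ero1l through its synonym Ero1a. The data are ATAC-seq peak lists, which mark stretches of DNA that the Tn5 transposase could cut, from the long-term stem cells of blood formation (Lt-HSCs) of mice of the C57BL/6 strain. There were 3 lists from aged and 3 from young animals. All cells, aged and young alike, were bone marrow cells that passed a sort for cKit+ and Sca1+ and for Lin-, Cd34- and Flk2-, and were kept overnight at 3% O2 in HBSS with 10% FBS, so the lists hold no sample kept at another oxygen level. Neither the age in weeks or months is labelled nor whether a list came from 1 mouse or from several, so the spread between lists may be partly technical. The titles of aged and young samples with the same number also share an exp number (2, 5 and 3 for samples 1, 2 and 3), and each title carries a further number. The labels explain neither.

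Hypoxia-inducible factors are heterodimers of an oxygen-regulated alpha subunit (HIF-1α from Hif1a, HIF-2α from Epas1) and the constant partner ARNT. With oxygen present, prolyl hydroxylases mark the alpha subunit for the von Hippel-Lindau ubiquitin ligase, which leads to its destruction. When oxygen is low the dimer binds hypoxia response elements, whose core is ACGTG or GCGTG, and raises transcription of genes for glucose uptake, glycolysis, lactate export and the diversion of pyruvate from mitochondria. Long-term stem cells reside in a poorly oxygenated marrow and are known for their reliance on glycolysis.

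A peak list gives intervals, not read counts, and the number of reads behind each list is unknown. For each gene the strongest peak within 1 kb of either annotated end of the gene was taken (the gene end), and its -log10 p, the authors' own value, was turned into a percentile among all distinct peaks of the same list. A percentile of 95 means that the peak ranked above 95% of the peaks of its list, and a gene with no peak there was not called. The lists held 244692, 129137 and 129949 distinct peaks in aged samples 1 to 3 and 263956, 254869 and 110596 in young samples 1 to 3. In the list of young sample 2 only 0.785 distinct -log10 p values occurred per 1000 peaks, against 12.3 to 154 in the other 5 lists, so that many of its peaks share one percentile, such as 73.1 or 88.8. This list and that of aged sample 3 called the fewest gene ends. Among 10 genes that mark stem cells, Kit, Procr, Meis1, Hlf and Tal1 were called at an end in all 6 lists. Gata2 was called at an end in no aged and all 3 young lists but at a RefSeq start in all 6, Slamf1 at an end in 0 aged and 1 young list, and Ly6a, which encodes Sca1, in 2 of each. Of the markers of other cells in the marrow, 1 of 5 mature myeloid genes (Mpo) and none of the 3 genes each for B cells, T cells, erythroid and endothelial cells were called in all 6 lists.

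The start-site DNA of 6 members on which the results turn is shown here, as the 120 bases upstream of the RefSeq start on GRCm38.p6, the assembly behind mm10, on the strand of the gene. Capitals mark every whole match to ACGTG or GCGTG, which reads CACGT or CACGC where the match lies on the opposite strand. Arnt and Bnip3 had the strongest peaks, Hif1a, Ldha and Slc16a3 differed between the window at the gene end and that at the start, or between lists, and the peak at the inner start of Pfkfb3, shown beside the outer one, lay higher in the aged lists.
Arnt, chr3:95434270-95434389 (+): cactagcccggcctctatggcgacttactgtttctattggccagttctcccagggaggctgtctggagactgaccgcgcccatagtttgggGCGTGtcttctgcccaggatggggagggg
Bnip3, chr7:138909507-138909626 (-): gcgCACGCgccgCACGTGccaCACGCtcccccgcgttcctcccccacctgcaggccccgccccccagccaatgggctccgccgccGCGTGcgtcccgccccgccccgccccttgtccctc
Hif1a, chr12:73907747-73907866 (+): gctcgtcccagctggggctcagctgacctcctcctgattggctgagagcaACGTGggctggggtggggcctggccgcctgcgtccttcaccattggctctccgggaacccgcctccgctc
Ldha, chr7:46845684-46845803 (+): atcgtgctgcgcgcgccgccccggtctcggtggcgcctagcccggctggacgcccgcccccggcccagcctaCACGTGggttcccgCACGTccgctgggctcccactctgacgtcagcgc
Slc16a3, chr11:120948947-120949066 (+): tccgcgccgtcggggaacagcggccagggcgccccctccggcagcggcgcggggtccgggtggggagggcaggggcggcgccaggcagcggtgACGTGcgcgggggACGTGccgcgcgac
Pfkfb3, outer start, chr2:11553930-11554049 (-): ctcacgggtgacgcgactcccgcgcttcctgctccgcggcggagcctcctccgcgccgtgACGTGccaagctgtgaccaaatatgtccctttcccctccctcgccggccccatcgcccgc
Pfkfb3, inner start, chr2:11502091-11502210 (-): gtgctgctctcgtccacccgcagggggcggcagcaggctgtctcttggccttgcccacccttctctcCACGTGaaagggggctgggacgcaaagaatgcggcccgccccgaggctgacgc

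Most members had a peak at a gene end in each list. In the aged lists 39, 38 and 35 of the 42 had a call, and in the young lists 34, 31 and 35. These are 92.9%, 90.5% and 83.3% of the members in the aged and 81%, 73.8% and 83.3% in the young lists. Over all protein-coding genes the shares called were 69.1%, 64.6% and 53.1% in the aged and 69.7%, 55% and 64.3% in the young lists. For each member the 500 protein-coding genes nearest in length were also taken, and at their rate 31.1, 29.4 and 24.1 members would have been called in the aged and 31.1, 24.6 and 29.2 in the young lists. In each of the 6 lists the members' count was above that number. In all 6 lists together 26 of the 42 members were called (61.9%), against 35.1% of all genes (7600 of 21631) and 16.5 members at the rate of genes of like length. Another 3 members, Pfkfb4, Aldoa and Ldha, were called in no list, as were 12.1% of all genes. In the 4 lists other than aged sample 3 and young sample 2, 34 members were called throughout, against 53% of all genes and 24.5 members at the rate of genes of like length.

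**Figure D1:**
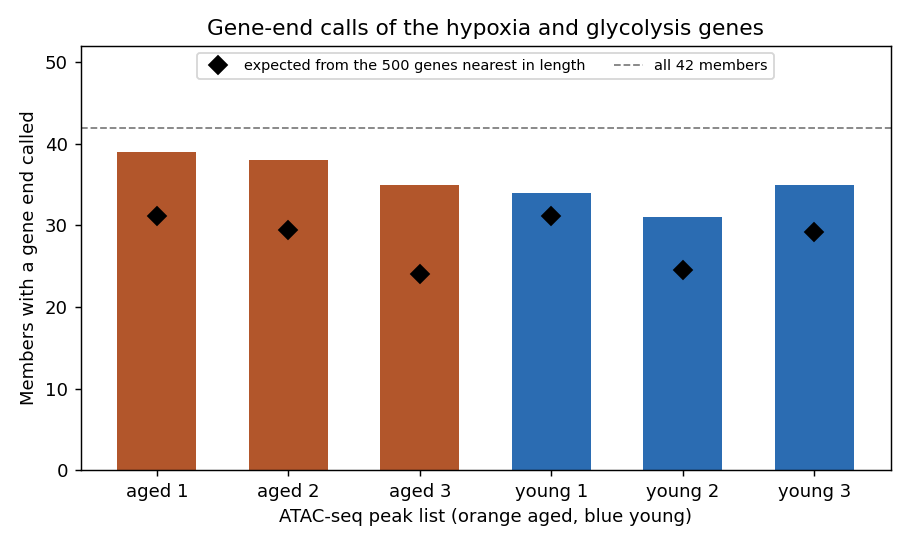
Number of the 42 members with a gene end called in each list (bars, aged and young samples 1 to 3), the number at the rate of genes of like length (diamonds) and the total of 42 (line). The bars run from 31 to 39 and lie above the diamonds, which run from 24.1 to 31.1, in every list.

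Aged lists called 37.3 ± 2.08 members (SD, n = 3) and young lists 33.3 ± 2.08 (SD, n = 3), a difference of 4 members. The counts of the ages touched but did not separate, since aged sample 3 and young sample 3 both had 35. Between samples that share an exp number the differences were 5, 7 and 0 members. Genes of like length gave 28.2 ± 3.62 in the aged and 28.3 ± 3.34 in the young lists (SD, n = 3). Vhl, Egln1, Gpi1, Pfkl, Pfkp and Ero1l lacked a call in young sample 2 alone, and Slc2a3 and Adm in aged sample 3 alone. In 11 members more aged than young lists had a call (26.2%), in 2 more young lists, and in 29 the numbers were equal. Of all genes, 19.7% had more aged and 20.5% more young lists. No member was called in all aged and no young lists, where 0.208% of all genes were, and none the other way round, where 0.287% were.

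No member passed the test of rank between the ages. The median percentile over the members called was 97.8, 96.3 and 95.1 in the aged and 98.3, 88.8 and 96.6 in the young lists, each above the median over all genes called, 94.4, 92.8 and 92.8 in the aged and 95.5, 73.1 and 92 in the young lists. Young sample 2 had the lowest median for members and for all genes. A rank test between the ages (limma on normal scores, over the 7600 genes called in all 6 lists) gave 0 genes with a Benjamini-Hochberg adjusted p under 0.05 (0%), and 283 genes had an unadjusted p under 0.05. None of the 26 members tested was among those 283. With 3 lists per age an exact permutation test of a single gene cannot give a p under 0.1.

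**Figure D2:**
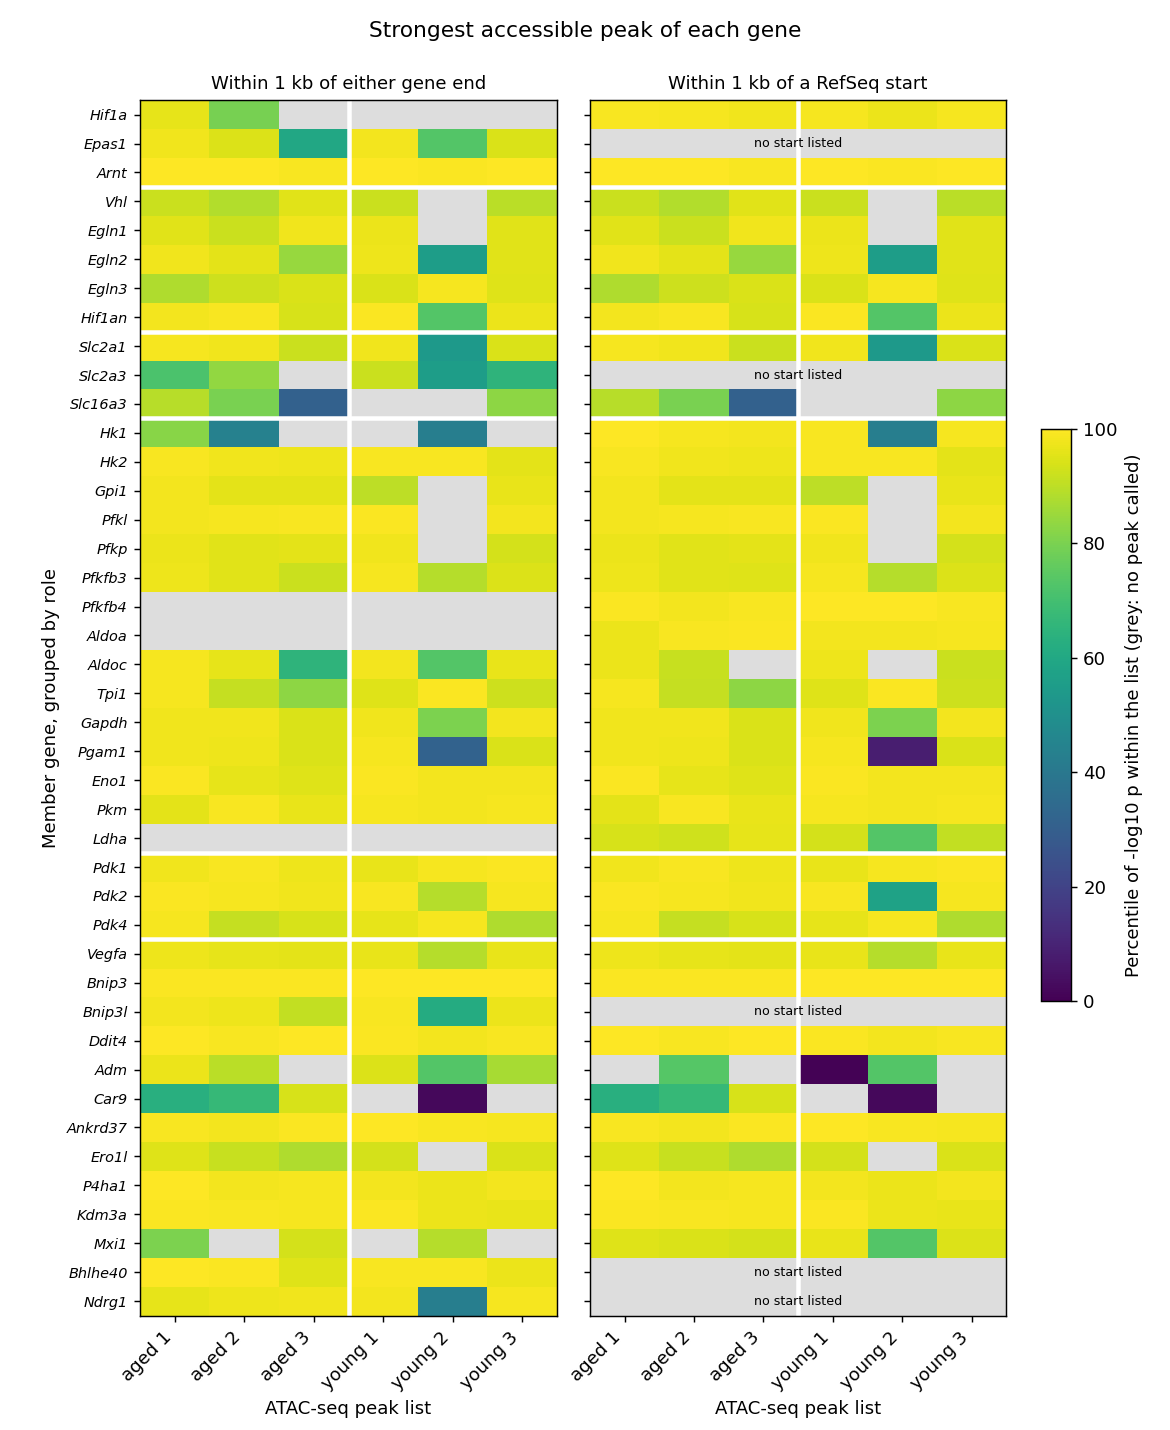
Percentile of the strongest peak within 1 kb of the gene end and of the RefSeq start for each of the 42 members. Rows are members by role, and columns are aged and young samples 1 to 3. Grey marks a gene that was not called. Epas1, Slc2a3, Bnip3l, Bhlhe40 and Ndrg1, which have no RefSeq start listed, are also grey at the start. Most rows are at high percentiles throughout, and Pfkfb4, Aldoa and Ldha are grey at the gene end and filled at the start.

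Of the 3 factor subunits, Arnt and Epas1 were called at an end in all 6 lists. Arnt (chr3:95434367-95497240), the shared partner of the alpha subunits, had the highest mean of all members, with percentiles of 99.9, 99.8 and 98.9 in the aged and 99.9, 99.6 and 100 in the young lists. The ages overlapped, with means of 99.5 ± 0.5 and 99.8 ± 0.2 (SD, n = 3). Epas1, encoding HIF-2α, stood at 98.0, 94.8 and 59.9 in the aged and 98.4, 73.1 and 94.4 in the young lists, and its low values lay in aged sample 3 and young sample 2. Hif1a (chr12:73901324-73947554) was called at an end only in aged samples 1 and 2, at percentiles of 96.2 and 79.3. Its exact permutation p between the ages was 0.4 (two-sided, n = 3 per age). The RefSeq start of Hif1a, however, lies inside the annotated gene, 6543 bp from its nearer end, and there it was called in all 6 lists, at 99.2, 98.5 and 97.7 in the aged and 98.7, 96.9 and 98.7 in the young lists. The merged region of that start, chr12:73907439-73908658, had a mean percentile of 98.3.

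Among the genes of oxygen sensing, 3 of 5 were called in all 6 lists. Egln3, a prolyl hydroxylase that is itself a hypoxia target, stood at 87.9, 92.5 and 94.2 in the aged and 94.5, 98.6 and 95.1 in the young lists. All 3 young values lay above the aged ones, by 4.5 percentile points on average, with an exact permutation p of 0.1 (two-sided, n = 3 per age), the smallest possible. In the rank test its difference, aged minus young, was -0.72 normal score units (SE 0.50), with a limma adjusted p of 0.949. Egln2, another hydroxylase of the family, stood at 97.7, 95.9 and 84.5 in the aged and 97.4, 55.6 and 95.7 in the young lists. The region with these values, at the Egln2 start, lies within 1 kb of an end of Rab4b. An end of Egln2 also lies within 1 kb of an end of Cyp2t4. Hif1an, the asparaginyl hydroxylase that blocks coactivator binding, stood at 98.1, 98.9 and 94.1 in the aged and 99.6, 73.1 and 97.1 in the young lists. Vhl, the substrate receptor of the ubiquitin ligase, was called in 5 lists, at 91.9, 88.5 and 95.5 in the aged and at 92.1 and 89.8 in young samples 1 and 3. Egln1, the main oxygen sensor of the family, was called in the same 5 lists, at 95.7, 91.9 and 97.8 in the aged and at 97.2 and 95.4 in the young. For Egln2, Hif1an, Vhl and Egln1 the lowest value or the missing call was in young sample 2.

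Of the transporters, Slc2a1, encoding the glucose transporter GLUT1, was called in all 6 lists at percentiles from 53.9 to 98.6, and Slc2a3, encoding GLUT3, in 5 lists. Slc16a3, encoding the lactate exporter MCT4, was called in all 3 aged lists, at 89.3, 79.8 and 30.9, and in young sample 3 alone, at 82.9. Its means with a missing call set to 0 were 66.7 ± 31.4 in the aged and 27.6 ± 47.9 in the young lists (SD, n = 3), with an exact permutation p of 0.3 (two-sided). The one young value lay inside the range of the aged values, and in a window of 2 kb a further young list, sample 1, had a call, at 90.5. As printed above, its promoter carries the core motif ACGTG at a pair of places.

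Of the 15 glycolytic enzymes and regulators, 8 were called at an end in all 6 lists: Hk2, Pfkfb3, Aldoc, Tpi1, Gapdh, Pgam1, Eno1 and Pkm. Hk2, encoding the inducible hexokinase, stood at percentiles from 96.0 to 99.1, Eno1, encoding enolase, at 95.1 to 99.6, and Pkm, encoding pyruvate kinase, at 96.0 to 99.1. Gpi1, Pfkl and Pfkp, which encode glucose-6-phosphate isomerase and phosphofructokinase, lacked a call in young sample 2 alone and stood at 90.1 to 99.3 where called. Hk1, encoding the hexokinase found in most cells, was called at an end in 3 lists, at 82.2, 44.1 and 42.7 in aged samples 1 and 2 and young sample 2.

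At the RefSeq starts, all 4 of the enzymes with the fewest gene-end calls were called in all 6 lists. Pfkfb4, a regulator of phosphofructokinase whose start lies 3630 bp inside the gene, stood at 99.3, 98.3 and 99.2 in the aged and 99.8, 100 and 98.9 in the young lists. Aldoa, encoding aldolase A, stood at 96.9, 99.1 and 99.6 in the aged and 98.3, 98.1 and 98.8 in the young lists. Ldha, encoding the lactate dehydrogenase subunit that favours lactate formation, starts 3530 bp inside the annotated gene and stood at 93.9, 92.8 and 96.2 in the aged and 93.4, 73.1 and 90.7 in the young lists. Hk1 has one start near its end and another inside the gene, and at the inner one it stood at 99.9, 98.5 and 98.1 in the aged and 99.2, 31.9 and 98.8 in the young lists. In all 4 genes the ages overlapped, and the lowest value of Ldha and Hk1 was in young sample 2. A call at an end is not always at the gene's own promoter: the region of Aldoc called in all 6 lists lies at the end of Pigs, 4338 bp from the Aldoc start, and ends of Pfkp, Tpi1, Gapdh and Pkm lie within 1 kb of another gene's end.

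The pyruvate dehydrogenase kinases, which hold pyruvate back from mitochondrial oxidation, were called at an end in all 6 lists. Pdk1, the HIF target among them, stood at percentiles from 96.8 to 99.4, Pdk2 at 88.8 to 99.3 and Pdk4 at 88.1 to 98.6. The ages overlapped for each, and an end of Pdk2 lies within 1 kb of an end of Samd14.

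Of the 13 other hypoxia targets, 9 were called in all 6 lists: Vegfa, Bnip3, Bnip3l, Ddit4, Ankrd37, P4ha1, Kdm3a, Bhlhe40 and Ndrg1. Bnip3 (chr7:138890836-138909506), encoding a mitophagy receptor, stood at 99.4, 99.5 and 99.5 in the aged and 99.9, 99.8 and 99.7 in the young lists. Its young values were all above its aged ones, by 0.4 percentile points on average (exact permutation p = 0.1, two-sided, n = 3 per age, the smallest possible). The rank test gave a difference, aged minus young, of -0.60 normal score units (SE 0.39) and a limma adjusted p of 0.949. Its printed sequence holds matches to both forms of the core motif.

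Ddit4, encoding the mTORC1 inhibitor REDD1, stood at 100, 99.0 and 99.8 in the aged and 99.4, 98.2 and 99.1 in the young lists. The ages overlapped, and the rank test gave 0.74 normal score units (SE 0.43) with a limma adjusted p of 0.949. Ankrd37, an ankyrin repeat gene and HIF target, stood at 98.4 to 99.7, and its end lies within 1 kb of an end of Ufsp2. P4ha1, encoding a collagen prolyl hydroxylase subunit, stood at 97.2 to 99.7, Kdm3a, encoding a histone H3K9 demethylase, at 96.8 to 99.3, and Bhlhe40, encoding a transcriptional repressor, at 95.1 to 99.8. Counting Arnt, Hk2, Eno1, Pkm, Pdk1 and Bnip3 with these 5, 11 members had a percentile of at least 95 in every list (26.2% of the 42), against 9.03% of all genes.

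Mxi1, encoding a MYC antagonist, was called at an end in 3 lists, at 80.1 and 93.5 in aged samples 1 and 3 and at 88.8 in young sample 2, and at a RefSeq start in all 6, at 73.1 to 96.7. Adm, encoding the peptide adrenomedullin, and Ero1l, encoding an endoplasmic reticulum oxidoreductase, were called in 5 lists each.

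Car9, encoding the pH-regulating carbonic anhydrase IX, had the widest gap between the ages. It was called at 63.1, 66.8 and 93.8 in the aged lists and in young sample 2 alone, at 2.0. Its means with a missing call set to 0 were 74.6 ± 16.8 in the aged and 0.7 ± 1.1 in the young lists (SD, n = 3), a difference of 73.9 points, and the values did not overlap (exact permutation p = 0.1, two-sided, the smallest possible). The call rests on where the window stops. At its edge, the region chr4:43508021-43509113, centred 1541 bp from the Car9 start, was called in all 6 lists, at 96.3, 89.1 and 93.8 in the aged and 96.9, 55.6 and 86.3 in the young lists, and it lies near an end of Arhgef39. The values of aged samples 2 and 3 at the Car9 end come from peaks of this region. With a window of 2 kb the values of Car9 are those of that region and overlap. With 500 bp no member lay higher in all aged lists, where 1.69% of all genes did.

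Counting such separations over all genes gives the background, with a missing call set to 0 here and in the means of this paragraph. In 1.88% of all genes every aged percentile lay above every young one, and in 1.66% every young one above every aged one. Among the 42 members the numbers were 1, Car9, and 2, Egln3 and Bnip3. The counts moved with single lists, as fewer lists separate more easily: without aged sample 3 or young sample 1, 5 members lay higher in the aged lists, beside 6.94% and 9.35% of all genes, and without aged sample 2 or young sample 3, 3 members did, beside 5.23% and 3.5% of all genes. Without aged sample 1 or young sample 2, 4 members lay higher in the young lists, beside 3.75% and 7.14% of all genes. Over all members the mean percentile was higher in the aged lists for 26 and in the young lists for 13, with a median difference of 1.1 points, against 49.1% and 38.8% of all genes and a median of 0.0.

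RefSeq gave a start and promoter sequence for 37 members and 17274 genes. Not in the table were Epas1, Slc2a3, Bnip3l, Bhlhe40 and Ndrg1. Of the 37, 27 had a peak within 1 kb of a start in all 6 lists (73%), against 35.3% of all genes and 14.4 members at the rate of genes of like length. Per list 36, 37 and 35 starts were called in the aged and 35, 29 and 35 in the young lists, or 36 ± 1 and 33 ± 3.46 (SD, n = 3). The low count was that of young sample 2. With the gene end and the start counted as one window, 32 of the 42 members had a call in every list (76.2%), where 38.8% of all genes had one, and another 8 were called in 5 lists. Car9 and Slc16a3 were the 2 members called in fewer than 5.

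The peaks lay close to the starts. The median distance from the summit of the strongest peak near a start to the nearest RefSeq start of the gene was 76, 63 and 81 bp for the members in the aged and 88, 148 and 62 bp in the young lists, and over all genes called it was 103, 77 and 101 bp and 102, 182 and 72 bp. Young sample 2 had the widest distances in both sets. At Hif1a the summits lay at -52, -78 and -58 bp from the start in the aged lists and at 92, 136 and 42 bp in the young lists, so that the aged summits were all upstream of the young ones. The same order held for Hk1, where the peak taken in young sample 2 lies at another start than in the other lists. These were 2 of the 27 members whose start every list called. Of the 6098 genes whose start every list called, 4.87% had this order. The reverse order held for 0 members and for 4.28% of those 6098 genes.

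**Figure D3:**
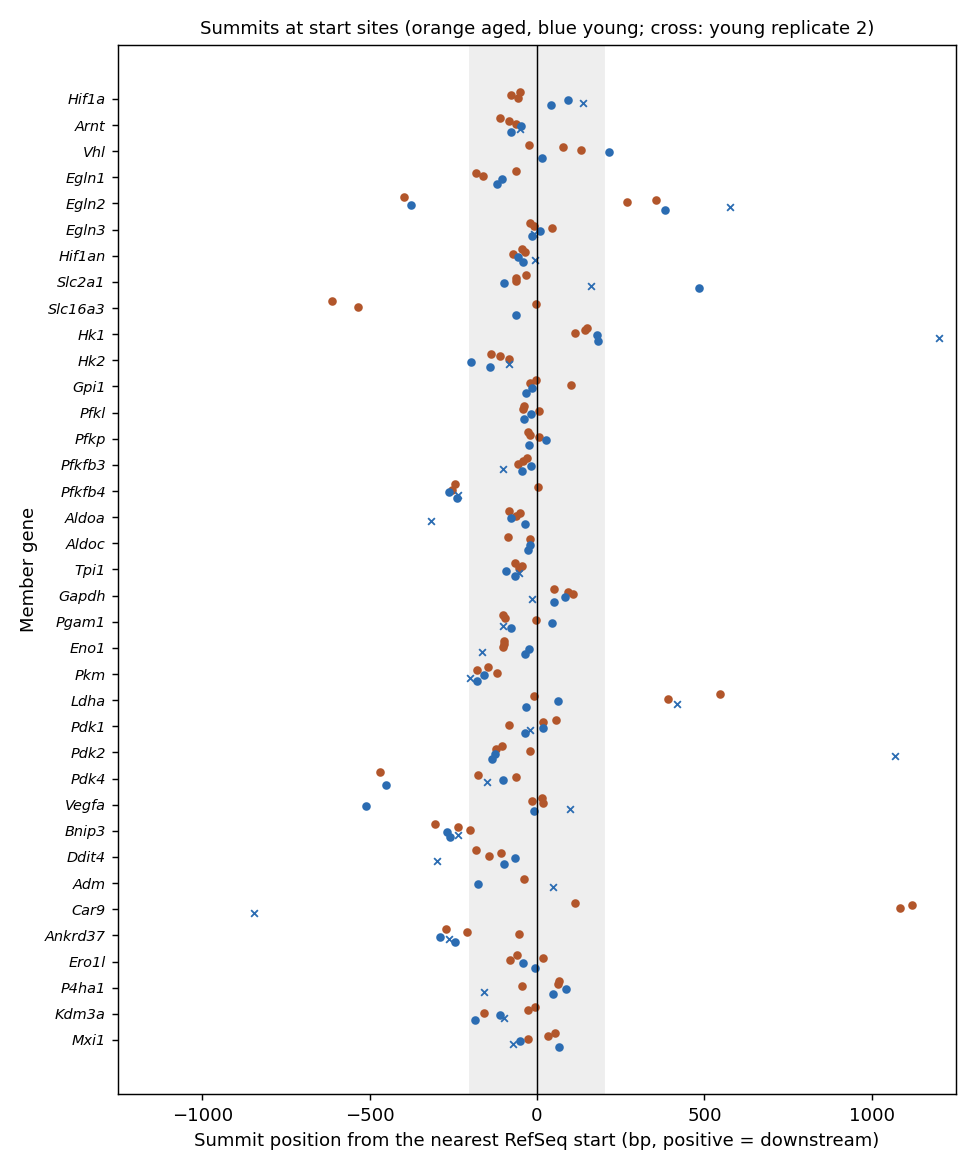
Summit of the strongest peak within 1 kb of any RefSeq start of a member, in bp from the nearest of its starts (negative is upstream), in aged and young samples 1 to 3; the shaded band spans 200 bp on either side. Most points lie in the band, with 62.1% in young sample 2 and 80.6% to 89.2% in the other lists.

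The median promoter, taken as 250 bases before to 50 after a start, held 21 CpG among the members and 13 over all genes, and its GC content was 62.5% and 56.7%. Calls at starts varied with CpG over all genes: 5.62% of genes with fewer than 10 CpG were called in all 6 lists, 41.6% of those with 10 to 19 and 62% of those with 20 or more. Of the members, 0 of 3 in the lowest class (Adm, Aldoc and Car9), 9 of 9 in the middle class and 18 of 25 in the highest were called in all 6 lists. At the rates of all genes in each class, 19.4 of the 37 would have been called, against the 27 observed. The 7 members with 20 or more CpG that missed a list were Egln1, Ero1l, Gpi1, Pfkl, Pfkp, Slc16a3 and Vhl. What part CpG content has in the members' calls was not tested beyond these rates.

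**Figure D4:**
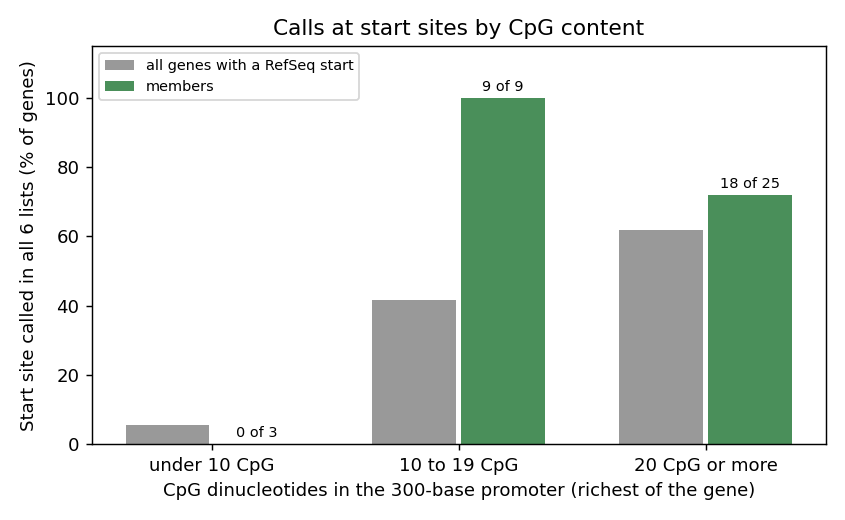
Share of genes with a RefSeq start called in all 6 lists, in percent, by the number of CpG in the 300-base promoter, for all genes and for the members. In the middle and upper classes the members stand at 9 of 9 and 18 of 25, against 41.6% and 62% of all genes, and in the lowest class at 0 of 3.

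Core motifs of the hypoxia response element were frequent in these promoters. ACGTG on either strand was found in 24 of the 37 members (64.9%), against 23.5% of the 17274 genes with a promoter in the table. ACGTG or GCGTG, which differ in the first base and can overlap on opposite strands, was found in 33 of 37 (89.2%), against 52.9%. A gene was counted if any of its promoters held a match. Counted per promoter, ACGTG was found in 50% of the members' 54 promoters and in 21.1% of the 21045 over all genes. Either motif was found in 75.9% and 49.8% of them. Both motifs hold a CpG. Within the class of 20 or more CpG, ACGTG was found in 18 of 25 members (72%) and in 32.7% of all genes, and within the class of 10 to 19 in 4 of 9 members and 27.5%. Many members are in the list because they are known HIF targets, so the motif count is not independent of how the list came about. A start was called in all 6 lists in 19 of 24 members with ACGTG in any promoter (79.2%) and in 8 of 13 without it (61.5%). Over all genes the shares were 47.9% and 31.4%. In genes with several starts the motif and the call may lie at different ones. The only ACGTG of Vegfa, for example, lies at a start called in 0 lists, whereas its other start was called in 6. A match is a description of the letters in this window and not of binding.

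Beyond the starts, the peaks of all lists were merged into 882758 regions, of which 1.09% were called in all 6 lists. The loci of the members, each the gene with 10 kb on either side, held 849 regions. Of these, 46 were called in all 6 lists (5.42%) and 637 in a single list. The 1.09% is over the whole genome, whereas these loci are chosen around genes. No share for the loci of genes of like length is set beside these counts, so they do not set the members apart from other genes. Of the 46, 27 lay at a gene end, 15 inside a gene and 4 in the flanks, and 8 of the 15 inside a gene were within 1 kb of a RefSeq start. A total of 36 members had at least 1 such region. Vhl, Egln1, Pfkp, Adm, Ero1l and Slc16a3 had none.

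Some of these shared regions lay away from the gene ends and from any start in the RefSeq table, which holds none for Slc2a3. That gene had one inside the gene, chr6:122742240-122742928, with a mean percentile of 97.7, and one in the flank, chr6:122810559-122811612, 8722 bp from the gene end, with a mean of 99.3. Its own gene end, in contrast, had a mean of 61.4, with the missing call in aged sample 3 set to 0. Egln3 had inner regions at chr12:54187738-54188304, with a mean percentile of 85.0, and chr12:54191684-54192385, with 75.1. Further inner regions lay at chr4:119115651-119116179 in Slc2a1 (mean percentile 75.9) and at chr6:82763780-82764528 in Hk2 (73.6), and a flanking one at chr7:34233845-34234528, 3850 bp from the end of Gpi1 (98.2).

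Among the regions called in all 6 lists, percentiles that were all higher in the aged lists were found for 3.55% over the genome, and all higher in the young lists for 2.54%. In the member loci 1 region lay higher in the aged and 3 in the young lists. Both directions occurred in Pfkfb3, which encodes an activator of glycolysis through fructose-2,6-bisphosphate. The region at its inner start, chr2:11501721-11502603, stood at 96.6, 90.1 and 95.3 in the aged and 80.8, 61.5 and 87.1 in the young lists. The region chr2:11535331-11535950, inside the gene and 18289 bp from the nearest RefSeq start, stood at 96.8, 96.4 and 94.1 in the aged and 99.2, 99.4 and 96.9 in the young lists. The other regions higher in the young lists were the ends of Egln3 and Bnip3. Regions called in all lists of one age and in none of the other made up 0.0502% (aged) and 0.0608% (young) of all regions. The member loci held 0 of the first kind and 1 of the second, at chr6:82780855-82781313, 6630 bp from the end of Hk2, with percentiles of 5.4, 42.7 and 74.3 in the young lists.

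The loci of the members held 307, 233 and 155 peaks in the aged and 288, 270 and 215 in the young lists. Per 1000 peaks of a list this was 1.25, 1.8 and 1.19 in the aged and 1.09, 1.06 and 1.94 in the young lists, or 1.42 ± 0.337 and 1.36 ± 0.502 (SD, n = 3). The difference of 0.0524 was below the spread between lists, and its sign turned when some single lists were left out: without aged sample 2 it was -0.141, without young sample 1 -0.0845 and without young sample 2 -0.1, and without young sample 3 it was 0.342. Between samples that share an exp number it was 0.164, 0.745 and -0.751. Genes of like length would have given 258, 168 and 147 peaks in the aged and 263, 246 and 156 in the young lists. Vegfa, encoding the angiogenic growth factor VEGF-A, held more peaks than 96% of the genes of its length, Pfkl more than 94.6%, Slc2a3 more than 94.2% and Ldha more than 93.4%. Ero1l and Bnip3 stood low, above 13.6% and 17.6%.

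Other genes of the same pathways, 45 outside the members, were described in the same way. Of these, 21 were called at an end in all 6 lists (46.7%), against 35.1% of all genes. They were 8 of 11 HIF partners and genes of the VHL ligase, 8 of 18 glucose and lactate enzymes and 5 of 16 other targets. More aged lists had a call in 6 of the 45 (13.3%) and more young lists in 11 (24.4%), against 19.7% and 20.5% of all genes. The highest means were those of Kdm4b, a histone demethylase, at a percentile of 99.6, and Rbx1, the RING subunit of the ligase, at 99.1. Stc2, encoding stanniocalcin 2, was called in 1 aged list, at 73.0, and in all 3 young lists, at 24.3, 88.8 and 66.8 (exact permutation p = 0.3, two-sided, n = 3 per age). Vldlr, encoding the very low density lipoprotein receptor, was called in 1 aged list, at 71.1, and in the young lists at 95.6, 42.7 and 78.2 (exact permutation p = 0.2, two-sided, n = 3 per age). Both single aged calls were in sample 2.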

How the data were processed

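The material was one ATAC-seq peak list per sample, 3 aged and 3 young, grouped by sample title. Per the submitters' processing notes reads were processed on mm10 with MACS2, Picard, SAMtools and Bowtie2 among the tools; versions, roles and settings, including any shift of reads for the transposase, are not given in the sources used here. Peaks were called per list. The deposited lists hold the authors' -log10 p, -log10 q, fold enrichment (a ratio to background) and a score per peak, with every p-value at most 0.01. Their depth is unknown. Percentiles, which depend on how many weak peaks a list holds, were computed here from the -log10 p over distinct peaks on chromosomes 1 to 19 and X, ties averaged. Genes and promoters came from RefSeq on GRCm38.p6, and a 1 bp overlap with a window counted. Tools were Python 3.11.15, R 4.3.3 and limma 3.58.1. The rank test was tested on simulated data over 7600 genes. It recovered 56% of genes shifted by 2 normal score units, 88.5% of those shifted by 3 and 0% of those shifted by 1. At shifts of 2 and 3, it also called 2 and 12 genes that were not shifted. The simulated noise was independent, of equal spread in every list and without ties, unlike the list of young sample 2. These rates may therefore not hold for the lists used. Alternatives covered windows, limits on q, list length, the ranking value and lists left out.

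Named individually are the 8 subunit and oxygen-sensing genes; members whose aged and young lists with a call differ by 2 or more or whose percentiles do not overlap; and the 6 highest and 6 lowest by mean percentile. The other members are given with their number of lists or their range. Members and lists were chosen with earlier results of these data known, and the CpG classes, the percentile of 95, the 200 bp band, the sequences shown and the single regions and loci named were chosen after values were seen.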

Additional observations from a re-analysis of the deposited data

How the results depend on the processing

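Of 80 recomputed values, 14 moved. The other 66 differed from the main one by less than 1 SD between lists or, for counts, by at most 1.5 times. Among these 66 is the difference in locus peaks per 1000, 0.0524, whose sign did not hold: it ran from -0.141 to 0.342. The 4-member difference in calls between the ages was 6.33 with the strongest 100000 peaks of each list and 2.83 to 5.17 leaving out single lists. Members called in every list numbered 26 to 32 leaving out single lists, beside 35.3% to 43.6% of all genes. The count of 32 and the share of 43.6% were both those without young sample 2. With peaks of q at most 0.05 the count was 21, beside 24.6% of all genes. Members with all aged percentiles higher (main count 1) numbered 0 with the 500 bp window and 0 with the 2 kb window (1.69% and 2.35% of all genes). Requiring a wider overlap of peak and window also gave 0 (1.81% of all genes). There were 5 without both aged sample 3 and young sample 2, an alternative chosen after seeing the data (8.64% of all genes). Leaving out single lists gave 1 to 5 (2.46% to 9.35% of all genes). Members with all young percentiles higher (main count 2) numbered 1 with peaks of q at most 0.05 (0.541% of all genes). With the strongest 100000 peaks there was also 1 (1.23% of all genes). There were 4 without both aged sample 3 and young sample 2 (8.98% of all genes). Leaving out single lists gave 2 to 4 (2.19% to 7.18% of all genes). Apart from having fewer lists or another window, the cause was not tested. The rank test called 0 genes under each alternative run. With the replicate number as a block it also called 0 genes, with 254 at an unadjusted p under 0.05 and a smallest limma adjusted p of 0.992. Samples with the same replicate number share an exp number in their titles, whose meaning is not given. Their lists gave correlations of 0.03, -0.15 and -0.05 across genes, taken between deviations from the mean of each age. With 3 lists per age these deviations cancel within an age, so the correlations cannot show that pairing is absent. The main rank test did not treat the samples as paired. Aged and young samples of differing number gave correlations from -0.10 to 0.20, the highest for aged sample 2 with young sample 3. Whether samples with the same replicate number share an experiment is not known. Unknown depth and ties in the list of young sample 2 limit what a missing call shows.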
